A study of Mus musculus with 12 samples.

Results

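The transcriptome of Rd76-9 tumors treated with both VCR and RCM1-NPFA was compared with that of vehicle-treated tumors. The members of this comparison were the 3 tumors titled VCR+RCM (m10, m11 and m12) and the 3 titled Control (m1, m2 and m3), which are 6 of the 12 tumors sequenced and were chosen by their titles alone. Rd76-9 is a single mouse rhabdomyosarcoma (RMS) line, from a tumor that methylcholanthrene induced in a female C57BL/6 mouse. Every tumor grew from cells injected into the flank of WT C57/Bl6J mice aged 8 to 12 weeks, so vessels, stroma and immune cells came from normal mice. The combination was VCR at 0.25 mg/kg every 7 days together with RCM1 at 8 µg per injection, carried by nanoparticles with folic acid (NPFA), every 48 hours. Vehicle mice received saline and empty NPFA. Dosing began on day 7 after inoculation and tumors were collected on day 16. The treatment label of the vehicle tumors also names the RCM1 nanoparticle, while their title and the study's methods give empty nanoparticles, and the title was followed. The sex of the host mice is not given in the sources used here.

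VCR, a vinca alkaloid, binds tubulin and keeps the mitotic spindle from forming. RCM1 is a small molecule inhibitor of FOXM1, the transcription factor that drives the genes of the G2 and M phases of the cell cycle. The folic acid on the particles binds folate receptors, which many tumor cells and macrophages carry at their surface. Bulk tumor RNA holds the RNA of tumor cells, vessels, fibroblasts, leukocytes and any neighbouring tissue, so fewer cells of a type and less RNA per cell cannot be told apart.

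The 6 libraries held between 29342195 and 32049539 estimated reads. Levels of single genes are given as CPM, read counts scaled to library size with TMM factors. Summed levels of lists are CPM scaled to library size alone. Differences are given as log2 fold changes with their standard error. The summed level of a list of 128 genes of adult muscle fibre was 2223, 2157 and 2166 CPM in the vehicle tumors m1, m2 and m3 and 5648, 9241 and 2853 CPM in the combination tumors m10, m11 and m12, without overlap. Among the other tumors it reached 29698 CPM in m9, given RCM1 alone. The summed level of Y-linked genes was 1.33, 1.09 and 15.6 CPM in m1, m2 and m3 and 1.22, 23.98 and 19.6 CPM in m10, m11 and m12, so m3, m11 and m12 stood above the other 3. The cell line came from a female mouse, so host sex may have been uneven between the groups, which was not tested. The part of the muscle fibre and Y-linked levels in the results was not tested except where a value with such a term in the fit is given. *Myod1*, which defines skeletal muscle tumors, had at most 0.0306 TPM, a measure that also divides by transcript length, in a vehicle tumor and between 0.414 and 0.688 TPM in the combination tumors, and desmin (*Des*) had 4.45 to 5.88 TPM in the vehicle tumors, so *Myod1* was near absent from the vehicle tumors and desmin was low but present. Keratinocyte markers were near 0 in all 12 tumors, with at most 0.247 TPM of *Krt5*.

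Beyond muscle genes, the combination tumors had lower transcript levels of *Egfr*, *Arhgap29*, *Vegfa* and *Tfrc* and higher levels of *Col1a1*, *Frmd5*, *Mgat3* and *Ebp* than the vehicle tumors, by the test of DESeq2. The main test, edgeR's quasi-likelihood test with Benjamini-Hochberg adjustment at 0.1, called 0 of 17602 genes (0.0%), and its smallest adjusted p was 0.666. At an unadjusted p under 0.05 it held 1286 genes (7.31%), with 672 higher (3.82%) and 614 lower (3.49%). The DESeq2 Wald test at the same threshold called 61 genes (0.347%), with 39 higher (0.222%) and 22 lower (0.125%), and limma-voom called 0. DESeq2 gave no adjusted p for 2064 genes. Of the 61 genes, 22 were on lists of muscle genes and all of these were higher. *Chac1* was another, and 38 lay outside these classes, with 17 higher and 21 lower. These 38 genes are described here as called, meaning called by DESeq2 and not by edgeR. On simulated data of this design DESeq2 made false calls at a rate well above its threshold of 0.1 and edgeR did not, so single genes among the 38 are weakly supported.

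The combination tumors lay entirely above or entirely below the vehicle tumors for 37 of the 38 genes, against 12.6% of all genes tested (7.1% above and 5.53% below), and the calls and the overlap come from the same tumors. The exception was *Gm33272*, a predicted transcript at 39.1, 37.4 and 23.2 CPM in the vehicle tumors and 24.1, 19.6 and 19.1 CPM in the combination tumors. This gene is placed on the Y chromosome. Of the vehicle tumors, m1 and m2 had little RNA of the Y-linked list (1.33 and 1.09 CPM) and m3 had more (15.6 CPM). *Gm33272* was thus highest in the vehicle tumors with the least Y-linked RNA. With the Y-linked term in the edgeR fit its log2 fold change was -0.59, against -0.67 without the term. Whether its DESeq2 call follows the Y-linked level was not tested. When a term for the muscle fibre level was added to the DESeq2 fit, 17 of the 38 stayed called. Among the genes described here, DESeq2 lost the call with this term, at the adjusted p in parentheses, for *Gpr39* (0.117), *Gm33272* (0.139), *Gstt1* (0.175), *Rac1* (0.191), *Pcolce* (0.201), *Ankhd1* (0.205) and *Jup* (0.206). It lost it also for *Chodl* (0.149), *Galnt13* (0.228), *Fgr* (0.239), *Ciart* (0.242), *Col15a1* (0.277), *Rprd2* (0.277), *Kdm3a* (0.451) and *Pde4b* (0.659). Without m9, the RCM1 tumor with the highest muscle level, edgeR called 5 of the 38. Leaving out each of the 6 tumors in turn, DESeq2 called *Arhgap29* and *Plac9a* in all 6 fits, 4 further genes in 5 fits and 12 genes in 1 fit only. The size of the call set rested on single tumors, since DESeq2 called 428 genes without m1, 156 without m3, 17 without m2, 11 without m12 and 7 without m11. Of the 38 genes, 4 were still called without m11, 8 without m12 and 8 without m2, so the DESeq2 adjusted p of a called gene is followed here by the highest one among these fits.

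**Figure D1:**
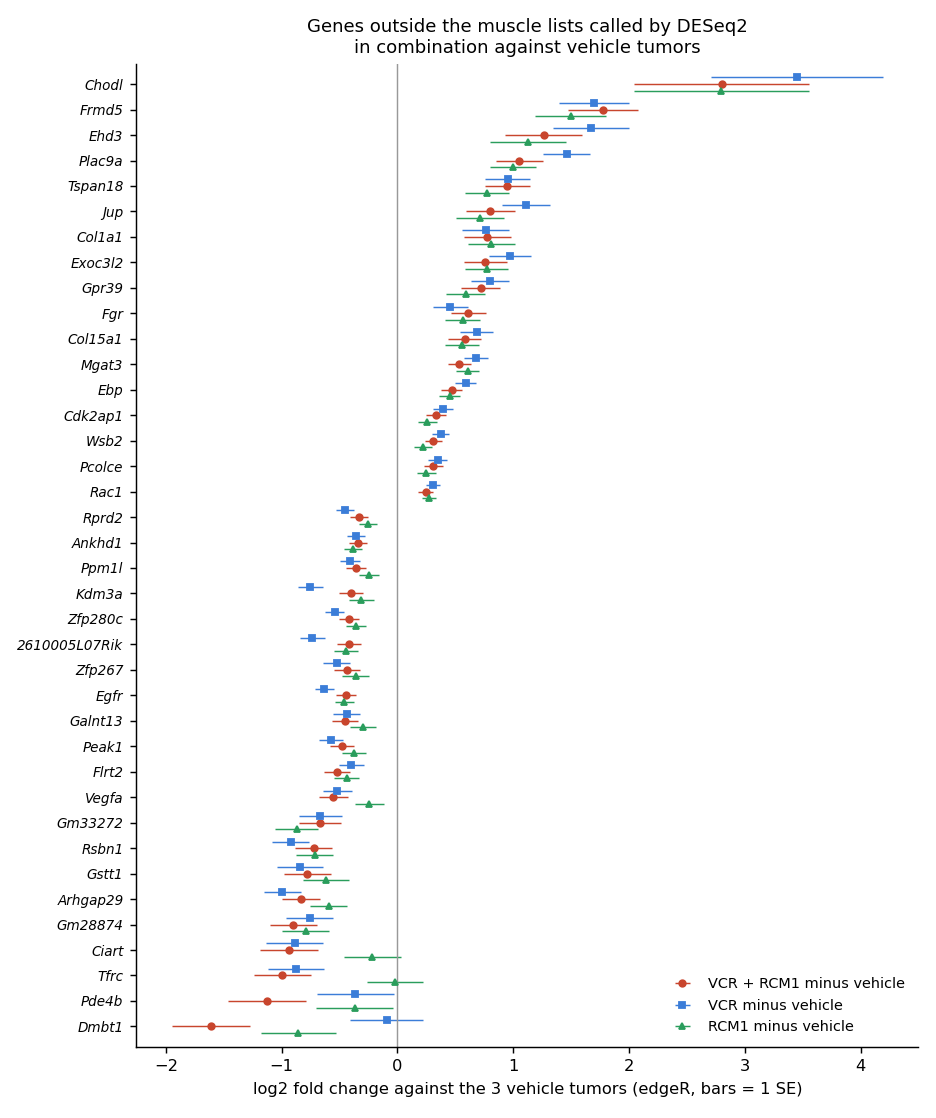
Change of the 38 genes outside the muscle lists that DESeq2 called, as log2 fold change against the 3 vehicle tumors (x axis) for the combination (circles), VCR alone (squares) and RCM1 alone (triangles), with bars of 1 SE from edgeR. All 3 comparisons share the vehicle tumors. The plot runs from *Dmbt1* (-1.61) to *Chodl* (2.80) for the combination, and *Tfrc* lies near 0 after RCM1 alone and *Dmbt1* after VCR alone. *Chodl* had at most 9 reads in a vehicle tumor, and its change ran from 2.24 (without m2) to 5.22 (without m1).

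Genes of growth factor signalling and the cell surface were among those called. *Egfr*, the receptor for epidermal growth factor (GRCm38, chromosome 11, 16752203 to 16913907), was at 91.8, 102 and 105 CPM in the vehicle tumors and 72.7, 73.8 and 72.8 CPM in the combination tumors. The 3 combination tumors were nearly equal and all lay below the vehicle tumors. The log2 fold change was -0.44 ± 0.084 (edgeR adjusted p = 0.666, DESeq2 adjusted p = 0.00712, 0.104 without m11), and it ran from -0.50 (without m1) to -0.40 (without m3) when 1 of the 6 tumors was left out. The list of growth factor receptors and imprinted growth genes had 40 tested genes and a median of 0.081. Of these, 6 lay above the vehicle tumors without overlap (15%, against 7.1% of all genes) and 3 below (7.5%, against 5.53%). *Igfbp7*, an insulin-like growth factor binding protein made by vessels, was at 66.5, 48.3 and 50.9 CPM against 78.1, 72.1 and 81.9 CPM, a difference of 0.49 ± 0.13 (DESeq2 adjusted p = 0.137). *Grb10*, an imprinted adaptor that dampens insulin receptor signalling, differed by 0.63 ± 0.21 (DESeq2 adjusted p = 0.249). Neither passed the threshold.

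*Arhgap29*, a GTPase-activating protein and known target of YAP (chromosome 3, 121953113 to 122016677), was at 89.4, 109 and 124 CPM in the vehicle tumors and 64.4, 57.5 and 58.4 CPM in the combination tumors. The highest combination tumor was well below the lowest vehicle tumor, and the log2 fold change was -0.84 ± 0.16 (DESeq2 adjusted p = 0.00712, 0.0837 without m11). With the muscle fibre term in the DESeq2 fit the call held at an adjusted p of 0.0051. On the list of 34 Hippo-YAP genes, 7 had an unadjusted edgeR p under 0.05 and lower levels (against 3.49% of all genes) and 1 had higher levels, and the list median was -0.083, against 0.0016 for all genes. The transcription factor *Tead1*, the DNA-binding partner of YAP, was at 143, 139 and 139 CPM against 128, 119 and 112 CPM, and *Wwtr1*, which encodes the YAP paralog TAZ, was at 161, 147 and 170.1 CPM against 142, 127 and 125 CPM. Both lay lower without overlap, with differences of -0.23 ± 0.075 and -0.28 ± 0.10, and neither was called (DESeq2 adjusted p = 0.236 and 0.293). *Dlc1*, another GTPase-activating protein, differed by -0.31 ± 0.12.

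Further called genes act at the plasma membrane and the cytoskeleton. *Rac1*, the small GTPase that drives actin protrusion, was at 269, 289.7 and 292 CPM in the vehicle tumors and 324, 344 and 339 CPM in the combination tumors, a small but non-overlapping difference of 0.24 ± 0.063 (DESeq2 adjusted p = 0.0157, 0.417 without m11). *Peak1*, a pseudokinase of focal adhesions, was lower at 132, 139 and 148 CPM against 113, 91.03 and 96.4 CPM (-0.48 ± 0.10, DESeq2 adjusted p = 0.0125, 0.32 without m11). *Flrt2*, a membrane protein that guides migrating cells, was lower at 82.2, 90.2 and 78.7 CPM against 64.6, 57.2 and 52.9 CPM (-0.52 ± 0.11, DESeq2 adjusted p = 0.0125, 0.259 without m11). In the opposite direction, *Jup*, the junction protein plakoglobin, was higher, at 22.6, 20.2 and 18.3 CPM against 42.6, 33.4 and 30.7 CPM (0.80 ± 0.21, DESeq2 adjusted p = 0.0654, 0.294 without m11). *Frmd5*, a FERM domain protein that binds cadherin complexes, had 0.617, 0.739 and 0.739 CPM in the vehicle tumors and 2.53, 3.01 and 1.67 CPM in the combination tumors. It was low in every vehicle tumor, and its change of 1.78 ± 0.30 (DESeq2 adjusted p = 0.00712, 0.171 without m11) was called by edgeR when m9 was left out (adjusted p = 0.0667). *Tspan18*, a tetraspanin, differed by 0.95 ± 0.19 (DESeq2 adjusted p = 0.0125, 0.262 without m2) and *Gpr39*, a receptor that senses zinc, by 0.72 ± 0.17 (DESeq2 adjusted p = 0.0379, 0.46 without m11), both higher without overlap.

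**Figure D2:**
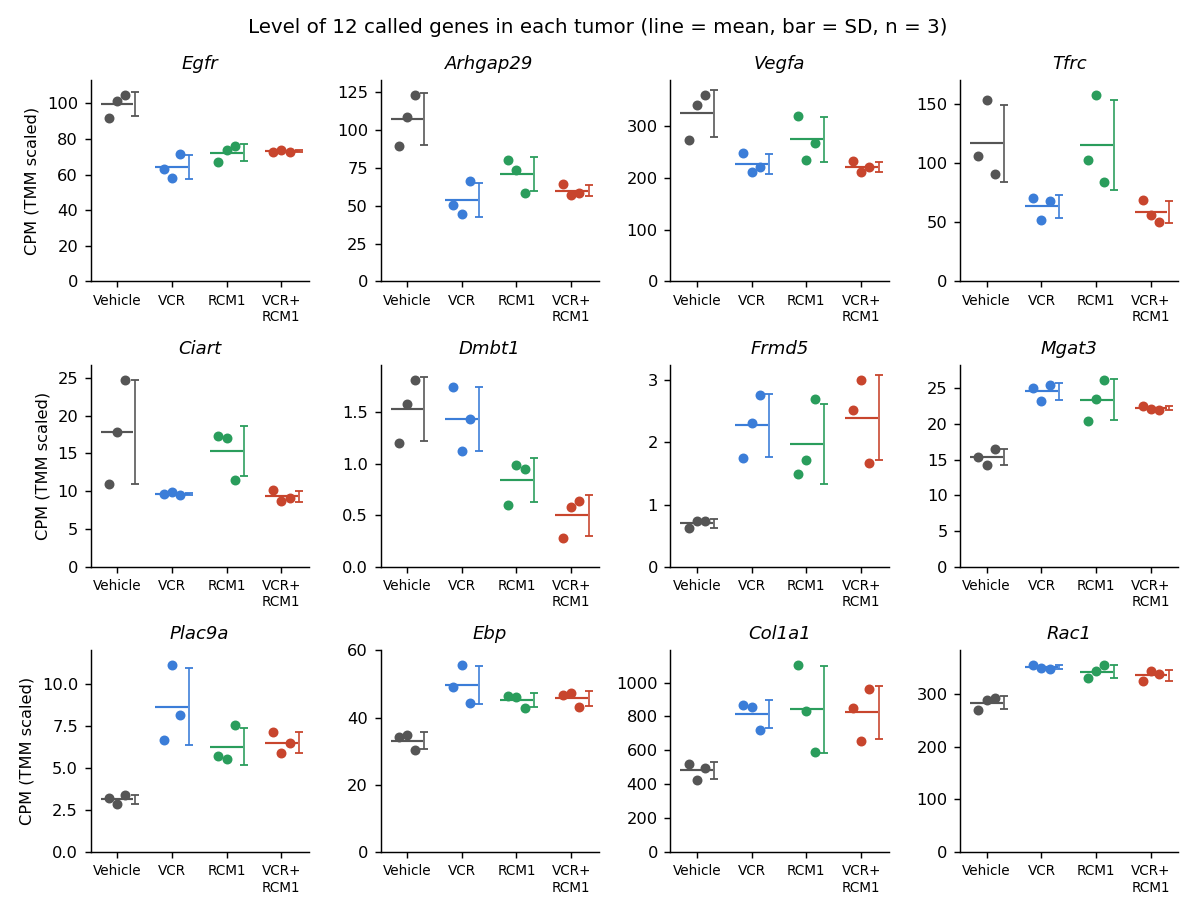
Level of 12 called genes in each tumor (y axis, CPM after TMM scaling, from 0), with points for tumors, lines for means and bars for the SD of 3 tumors in the vehicle, VCR, RCM1 and VCR + RCM1 groups. In all 12 panels the 3 combination tumors lie on the same side of the 3 vehicle tumors, and *Vegfa*, *Tfrc* and *Ciart* overlap the vehicle tumors after RCM1 alone.

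Genes that cells switch on under low oxygen were lower on balance in the combination tumors. The hypoxia-inducible factors bind DNA at the letters ACGTG in front of such genes, which encode glucose transporters, enzymes of glycolysis and the vessel growth factor VEGF-A. *Vegfa* (chromosome 17, 46016993 to 46032377) was at 273, 339 and 359.6 CPM in the vehicle tumors and 231, 210.5 and 219.6 CPM in the combination tumors. All 3 combination tumors were lower, with a log2 fold change of -0.56 ± 0.13 (edgeR adjusted p = 0.666, DESeq2 adjusted p = 0.0129, 0.294 without m11), and the change ran from -0.66 (without m1) to -0.47 (without m3). DESeq2 kept the call without m1, m3 or m10 and lost it without m2, m11 or m12. *Kdm3a*, a histone H3K9 demethylase, was at 114, 115 and 127 CPM against 87.03, 93.8 and 88.6 CPM (-0.40 ± 0.11, DESeq2 adjusted p = 0.0979, 0.417 without m11), and was the other called gene of the list. Among all 49 genes of the hypoxia and glycolysis list, 39 had a log2 fold change below 0, compared with 49.6% of all genes tested. The list median was -0.23, and -0.24 with the muscle fibre term. 6 of its genes lay below the vehicle tumors without overlap (12.2%, against 5.53% of all genes) and 1 above.

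The vehicle tumors themselves differed widely in this list. *Pfkl*, the liver form of phosphofructokinase, was at 225, 255 and 371 CPM in m1, m2 and m3 and 179.9, 173 and 211 CPM in the combination tumors. *Slc2a1*, the glucose transporter GLUT1, was at 160.1, 209 and 354 CPM against 134, 145 and 173 CPM, with m10 and m11 below every vehicle tumor and m12 above m1. *Car9*, the surface carbonic anhydrase used as a hypoxia marker, was at 43.7, 87.4 and 139 CPM against 38.9, 31.7 and 53 CPM, and the groups overlapped. Of the vehicle tumors m3 was highest in all 3 genes, and without it the list median moved from -0.23 to -0.064. *Epas1*, which encodes HIF-2α and is abundant in endothelium, went the other way, at 17.03, 16.3 and 14.3 CPM against 22.2, 21.7 and 20.9 CPM (0.45 ± 0.14, DESeq2 adjusted p = 0.235). *Pfkl*, *Car9* and *Slc2a1*, like *Bnip3*, *Esm1*, *Cdh5*, *Ddit3*, *Atf4*, *Postn*, *Isg15* and *Dlc1*, were chosen for naming after their values were seen.

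*Bnip3*, a mitophagy receptor and textbook target of HIF-1, was at 117, 129 and 218 CPM in the vehicle tumors and 81.6, 93.8 and 106 CPM in the combination tumors, lower without overlap (-0.72 ± 0.28, DESeq2 adjusted p = 0.476). Its RefSeq promoter (GRCm38.p6, chr7:138909457-138909756, minus strand, 250 bases before to 50 after the start) is shown because it holds the hypoxia motif ACGTG on both strands at 1 place, in capitals, where the matches overlap as CACGTG:
*Bnip3*: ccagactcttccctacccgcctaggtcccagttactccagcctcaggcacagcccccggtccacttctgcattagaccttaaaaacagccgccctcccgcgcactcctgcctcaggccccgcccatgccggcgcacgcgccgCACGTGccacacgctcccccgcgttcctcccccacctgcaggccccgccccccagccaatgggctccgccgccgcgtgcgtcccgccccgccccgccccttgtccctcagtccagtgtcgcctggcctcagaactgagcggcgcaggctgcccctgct
The letters ACGTG occurred on either strand in 6447 of 32851 RefSeq promoters of this length (19.6%) and in 30 of the 57 promoters of the list. Counted by gene, with a match in any of its promoters, they occurred in 27 of the 39 genes of the list with a promoter in the table (69.2%). The share by gene is not comparable with the share of all promoters.

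The list of endothelial genes had the highest median of the 38 lists other than muscle fibre and Y-linked genes in the main fit. It ranked after interferon genes with the muscle fibre term, after fibroblast genes with the Y-linked term and after lymphocyte genes in limma-voom. Of its 33 tested genes, 16 were higher in every combination tumor than in any vehicle tumor (48.5%, against 7.1% of all genes), 0 were lower without overlap, and 0 were called by edgeR or DESeq2. The median log2 fold change was 0.41, and ran from 0.27 (without m2) to 0.54 (without m1) on leaving out a tumor. *Pecam1*, the CD31 of vessel staining, was at 47.7, 35.4 and 40.9 CPM in the vehicle tumors and 49.5, 52.02 and 49.8 CPM in the combination tumors (0.29 ± 0.13, edgeR adjusted p = 0.682). The paper's staining, which measures protein, found less CD31 after the combination than after vehicle. *Cdh5*, the cadherin of endothelial junctions, was at 65.2, 48.8 and 63.8 CPM against 67.8, 70.3 and 75.01 CPM (0.26 ± 0.14). *Eng*, a TGF-β coreceptor of vessels, was at 34.3, 29.4 and 31.2 CPM against 40.7, 40.9 and 44.8 CPM (0.41 ± 0.11, DESeq2 adjusted p = 0.154). All 3 genes were higher without overlap in CPM, and m1 was the highest vehicle tumor in each. In TPM the groups overlapped for *Pecam1*, at 25.65 in m1 against 25.01 in m12, and did not overlap for *Cdh5*. At an unadjusted edgeR p under 0.05 the list held 16 higher and 2 lower genes, against 3.82% and 3.49% of all genes.

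*Nos3*, the endothelial nitric oxide synthase, was at 13.9, 9.07 and 10.3 CPM against 15.1, 18.8 and 17.5 CPM (0.63 ± 0.18, DESeq2 adjusted p = 0.154). *Esm1*, a tip cell gene that VEGF induces, was at 45.8, 62.99 and 83.9 CPM against 45.7, 48.8 and 46.7 CPM (-0.45 ± 0.17, DESeq2 adjusted p = 0.336), with m10 just under m1 and m11 and m12 within the vehicle range. It was among the 4 genes of the list below 0. The summed level of the list was 741, 642 and 763 CPM in the vehicle tumors and 796, 786 and 807 CPM in the combination tumors. These sums carry no TMM factors and TMM-scaled sums were not computed, so the small gap between m3 and m11 may not hold. The summed level was highest in the single-drug tumors m5 (905 CPM) and m9 (886 CPM), which also had the most muscle fibre RNA (20232 and 29698 CPM). With the muscle fibre term in the fit the endothelial median was 0.29. Among pericyte genes, *Rgs5* was higher at 32.2, 29.4 and 27.4 CPM against 39.5, 38.3 and 39.7 CPM (0.40 ± 0.11, DESeq2 adjusted p = 0.178), and the median of the 23 genes was 0.14.

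**Figure D3:**
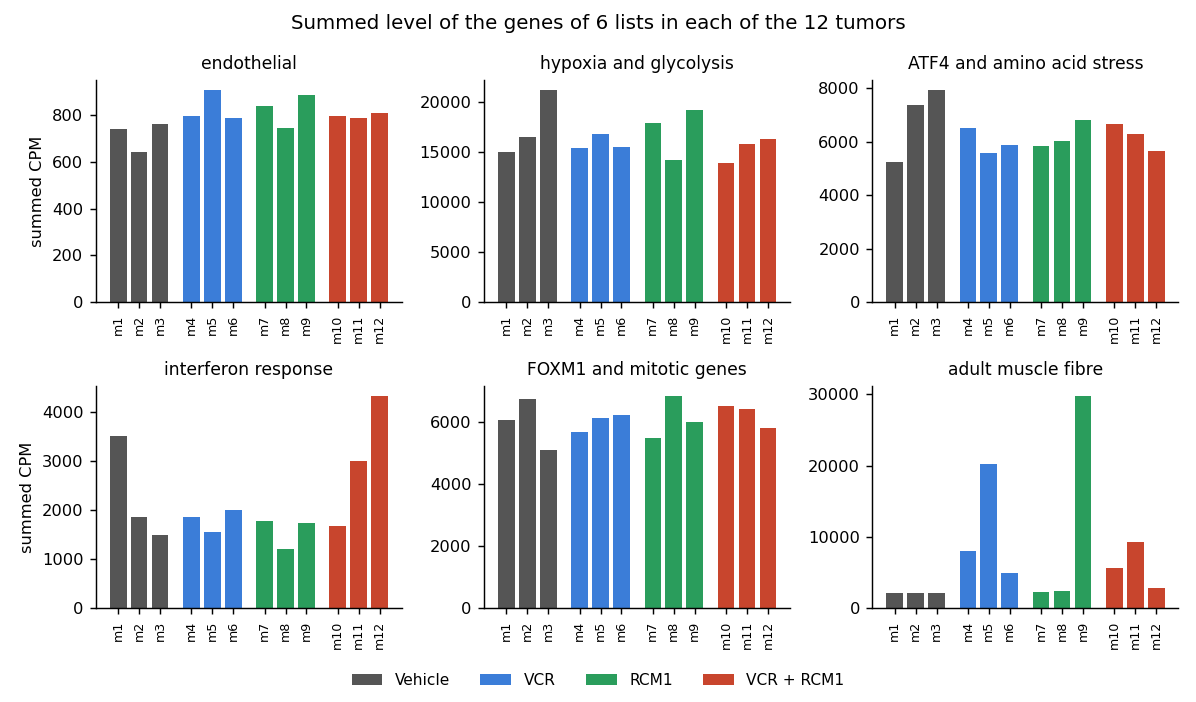
Summed CPM (y axis, from 0, scaled to library size without TMM factors) of the genes of 6 lists in each of the 12 tumors, grouped as vehicle, VCR, RCM1 and VCR + RCM1. On this scale endothelial levels lie above the vehicle tumors in m10, m11 and m12, by a small gap that may not hold with TMM factors. Hypoxia is highest in vehicle tumor m3, the ATF4 list is lowest in vehicle tumor m1, and muscle fibre is highest in m9 and m5.

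*Tfrc*, the transferrin receptor through which cells take up iron (chromosome 16, 32608896 to 32632794), was at 106, 154 and 90.5 CPM in the vehicle tumors and 69.2, 55.96 and 50.7 CPM in the combination tumors. Every combination tumor was below every vehicle tumor, with a log2 fold change of -0.99 ± 0.24 (edgeR adjusted p = 0.666, DESeq2 adjusted p = 0.0157, 0.284 without m2), from -1.15 (without m3) to -0.76 (without m2). DESeq2 lost the call without m2, m11 or m12. After the single drugs it was at 70.6, 52.1 and 67.7 CPM with VCR and 103, 158 and 84.5 CPM with RCM1, so the RCM1 tumors spanned the vehicle range. The combination differed from RCM1 by -0.97 (edgeR adjusted p = 1.00) and from VCR by -0.11 (adjusted p = 0.933). Of all 43 iron genes tested, 22 had a log2 fold change above 0 and the median was 0.011.

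The clock repressor *Ciart* (chromosome 3, 95878500 to 95882257) was at 10.9, 17.8 and 24.8 CPM in m1, m2 and m3 and 10.1, 8.702 and 9.06 CPM in m10, m11 and m12. The vehicle tumors were spread widely and the combination tumors were tight, all just below the lowest vehicle tumor, m1. The log2 fold change was -0.94 ± 0.25 (DESeq2 adjusted p = 0.0654, 0.481 without m11), and ran from -1.19 (without m1) to -0.63 (without m3). DESeq2 called it in 1 of the 6 fits without a tumor, that without m1. *Per1*, a core repressor of the clock that also responds to glucocorticoids, was at 52.7, 109 and 132 CPM against 54.96, 29.95 and 45.7 CPM (-1.17 ± 0.36, DESeq2 adjusted p = 0.228), and m10 overlapped m1. *Hlf*, a clock output factor, was at 2.19, 3.96 and 9.91 CPM against 0.853, 2.85 and 1.92 CPM (-1.51 ± 0.54, DESeq2 adjusted p = 0.198). These 3 genes had their lowest vehicle level in m1, and they were the only ones of the 26 clock genes with an unadjusted edgeR p under 0.05. The list median was -0.028.

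*Per1* had 2 RefSeq promoters, and the 1 shown lies within the gene (chromosome 11, 69095108 to 69109965). The promoter of *Ciart* (chr3:95882179-95882478, minus strand) and this promoter of *Per1* (chr11:69098699-69098998, plus strand) are shown for the E-box CACGTG, the sequence to which the clock activators CLOCK and BMAL1 bind, with matches in capitals:
*Ciart*: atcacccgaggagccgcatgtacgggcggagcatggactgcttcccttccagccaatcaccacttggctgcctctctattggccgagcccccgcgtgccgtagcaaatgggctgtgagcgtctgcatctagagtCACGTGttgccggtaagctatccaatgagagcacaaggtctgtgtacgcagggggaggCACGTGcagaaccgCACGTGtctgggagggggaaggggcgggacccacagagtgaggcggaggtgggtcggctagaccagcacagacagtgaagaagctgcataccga
*Per1*: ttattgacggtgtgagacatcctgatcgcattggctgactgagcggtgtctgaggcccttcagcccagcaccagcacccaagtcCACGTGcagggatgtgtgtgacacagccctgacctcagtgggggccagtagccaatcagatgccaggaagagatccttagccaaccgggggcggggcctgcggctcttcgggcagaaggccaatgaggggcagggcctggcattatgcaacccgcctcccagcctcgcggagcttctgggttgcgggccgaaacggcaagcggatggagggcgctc
*Ciart* held 3 copies and the *Per1* promoter shown held 1. The motif, which reads the same on both strands and contains ACGTG, occurred in 2349 of 32851 promoters (7.15%) and in 6 of the 31 promoters of the clock list. Counted by gene, with a match in any promoter, it occurred in 5 of the 22 clock genes in the table (22.7%). A match is a description of these letters and does not show binding.

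The ATF4 pathway raises genes of amino acid supply and tRNA charging when translation is restrained. Leaving *Chac1* aside, none of its members was called, and 43 of the 49 genes tested, *Chac1* included, were below 0, with a median of -0.19. *Trib3*, a pseudokinase that ATF4 induces, was at 15.98, 37.2 and 50.8 CPM in the vehicle tumors and 19.1, 17.9 and 18.5 CPM in the combination tumors (-0.91 ± 0.32, DESeq2 adjusted p = 0.204). *Atf4* itself was at 319, 424 and 496 CPM against 345, 329 and 306 CPM (-0.34 ± 0.14), and *Ddit3*, the stress factor CHOP, at 25.1, 37.2 and 59.2 CPM against 27.3, 23.5 and 29.7 CPM (-0.59 ± 0.24). In each the vehicle tumor m1 was below or within the range of the combination tumors and m2 and m3 were above them. The median of the list was -0.33 without m1 and -0.021 without m3. Of its genes, 1 lay below the vehicle tumors without overlap (2.04%, against 5.53% of all genes). This was the amino acid transporter *Slc38a2*, at 247, 255 and 257 CPM against 234, 216 and 199.8 CPM (-0.23 ± 0.078).

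The RefSeq promoter of *Trib3* (chr2:152344011-152344310, minus strand) is given for the composite element TGATGNAA to which ATF4 binds with a C/EBP partner, found here on the opposite strand:
*Trib3*: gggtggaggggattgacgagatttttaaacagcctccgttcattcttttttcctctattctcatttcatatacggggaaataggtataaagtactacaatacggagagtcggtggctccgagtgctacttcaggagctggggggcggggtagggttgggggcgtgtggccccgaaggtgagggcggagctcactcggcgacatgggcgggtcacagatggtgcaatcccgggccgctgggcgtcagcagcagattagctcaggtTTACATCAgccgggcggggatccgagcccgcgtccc
The element was in 1304 of 32851 promoters (3.97%) on either strand and in 16 of the 46 promoters of the list. Counted by gene, with a match in any promoter, it was in 16 of the 40 genes of the list in the table (40.0%).

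*Foxm1*, the target of RCM1, and the mitotic genes it drives were not called. *Foxm1* was at 139, 168 and 143 CPM in the vehicle tumors and 172, 171 and 151 CPM in the combination tumors (0.13 ± 0.094, edgeR adjusted p = 0.767). *Mki67*, the Ki-67 gene of proliferating cells, was at 533, 604 and 421 CPM against 555, 537 and 468 CPM (0.0030 ± 0.14, edgeR adjusted p = 0.999). Both overlapped between the groups, with means of 150.1 ± 15.8 against 165 ± 12.1 and 519 ± 92.3 against 520.1 ± 45.9 CPM (SD, n = 3). The paper's staining, which measures protein, found fewer Ki-67-positive cells after the combination than after vehicle. Of the 50 FOXM1 and mitotic genes, 44 had a log2 fold change above 0, 7 lay above the vehicle tumors without overlap (14%, against 7.1%) and 0 below. The median was 0.096, and 0.026 without the vehicle tumor m3, in which the summed level was lowest.

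*Plk1*, the kinase that drives mitotic entry, was at 103, 113 and 103 CPM against 125, 133 and 125 CPM (0.26 ± 0.079, edgeR adjusted p = 0.666). *Aurka*, the centrosome kinase, was at 47.7, 50.1 and 42.9 CPM against 56.2, 62.6 and 51.7 CPM (0.28 ± 0.10), and *Gtse1*, a microtubule-binding protein of G2, differed by 0.26 ± 0.084. All 3 were higher without overlap, by a little, and none was called. The 50 S phase genes had a median of 0.094, with 3 above (6%, against 7.1% of all genes) and 0 below without overlap. Those with the smallest p were *Rfc3*, a clamp loader subunit (0.29 ± 0.096), and *Ccne1*, cyclin E1 (0.38 ± 0.13).

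Among 42 tubulin and microtubule genes, 11 lay above the vehicle tumors without overlap (26.2%, against 7.1% of all genes) and 2 below, and 0 were called. *Tubb3*, the β-III tubulin linked to resistance against drugs that bind tubulin, was at 10.98, 8.53 and 11.2 CPM against 11.3, 16.98 and 14.5 CPM (0.48 ± 0.21, edgeR adjusted p = 0.682), with m10 only just above m3. *Tbcb*, a tubulin folding factor, was at 58.4, 56.3 and 55.3 CPM against 59.99, 68.97 and 69.1 CPM (0.22 ± 0.078). The efflux pumps *Abcb1a* and *Abcb1b*, which export VCR, differed by 0.32 ± 0.27 and -0.11 ± 0.12, and 0 of 14 efflux genes were separated. *Folr2*, the folate receptor of macrophages, was at 15.2, 15.3 and 22.9 CPM against 24.9, 18.2 and 25.7 CPM (0.36 ± 0.24), and *Folr1* had too few reads to be tested. Among 35 apoptosis genes the median was 0.060. *Casp8*, the initiator caspase of death receptors, was at 60.3, 68.2 and 60.3 CPM against 71.7, 69.5 and 68.7 CPM (0.15 ± 0.062, edgeR adjusted p = 0.682). The 39 p53 targets had a median of 0.042.

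Collagen genes held 3 of the called genes. *Col1a1*, a chain of fibrillar type I collagen (chromosome 11, 94936224 to 94953042), was at 522, 425 and 496 CPM in the vehicle tumors and 852, 656 and 963 CPM in the combination tumors (0.78 ± 0.20, DESeq2 adjusted p = 0.0492, 0.383 without m12). With the muscle fibre term its change was 0.97 and the DESeq2 adjusted p was 3.9e-05, while *Col15a1* and *Pcolce* lost their calls with that term (0.277 and 0.201). *Col15a1*, a collagen of basement membranes, was at 62.9, 53.5 and 47.4 CPM against 87.03, 80.9 and 77.1 CPM (0.58 ± 0.14, DESeq2 adjusted p = 0.0692, 0.417 without m11). *Pcolce*, which speeds the trimming of procollagen, was at 503, 466 and 513 CPM against 597, 574 and 664 CPM (0.31 ± 0.082, DESeq2 adjusted p = 0.0742, 0.457 without m12). All 3 were higher in every combination tumor.

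Over the 65 matrix genes tested the median was 0.17, with 9 above without overlap (13.8%, against 7.1%) and 1 below. *Postn*, the matricellular protein periostin, was at 108, 86.8 and 23.9 CPM against 185, 157 and 141 CPM (1.14 ± 0.41, DESeq2 adjusted p = 0.424), with m3 far below the other vehicle tumors. The 27 fibroblast genes had a median of 0.23, which ran from 0.057 (without m12) to 0.70 (without m1). *Sfrp2*, a secreted Wnt modulator of fibroblasts, was at 2.53, 1.78 and 0.504 CPM against 4.902, 3.72 and 6.95 CPM (1.69 ± 0.51, DESeq2 adjusted p = 0.109). Among 50 Wnt pathway genes the ligand *Wnt11* (0.185, 0.235 and 0.202 CPM against 0.761, 0.582 and 0.512 CPM, 1.56 ± 0.39) and the receptors *Fzd2* (0.39 ± 0.11) and *Fzd1* (0.63 ± 0.19) were higher without overlap. None of them was called. Of the list, 9 genes lay above (18%, against 7.1% of all genes) and 2 below (4%, against 5.53%).

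Interferon genes were higher by their median, but the tumors of both groups were spread. The summed level of the 58 genes was 3501, 1860.3 and 1492 CPM in m1, m2 and m3 and 1674, 2992 and 4311 CPM in m10, m11 and m12, so vehicle tumor m1 was above m10 and m11. The median log2 fold change was 0.38, with 54 of 57 genes above 0 and 2 above without overlap (3.51%, against 7.1%). Without m12 the median was -0.0038, and without m1 it was 0.66. *Irf7*, the factor that amplifies type I interferon, was at 28.1, 23.2 and 24.7 CPM against 31.2, 34.03 and 80.9 CPM (0.94 ± 0.30, DESeq2 adjusted p = 0.154). *Isg15*, a ubiquitin-like effector, was at 19.3, 16.4 and 17.4 CPM against 17.3, 20.96 and 47.7 CPM (0.69 ± 0.31). In both the level of m12 was over that of every other tumor of the comparison.

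Of 31 antigen presentation genes, 0 were separated and the median of 0.18 turned to -0.27 without m12. Macrophage genes had a median of 0.17, and 1 of 41 lay above without overlap (2.44%, against 7.1% of all genes). *Adgre1* (F4/80) was at 55.4 to 69.01 TPM in vehicle and 64.4 to 71.7 TPM in combination tumors. *Fgr*, a Src family kinase of myeloid cells, was called, at 13.5, 8.53 and 11.1 CPM against 16.7, 18.6 and 15.4 CPM (0.61 ± 0.15, DESeq2 adjusted p = 0.0654, 0.656 without m11). The lymphocyte list had a median of 0.27, which was 1.30 without m1 and -0.12 without m3. *Gzma*, the granzyme of cytotoxic lymphocytes, was at 0.833, 0.437 and 0.336 CPM against 0.944, 0.906 and 1.73 CPM (1.14 ± 0.45), above m1 by a small margin. *Cd3e*, which marks T cells, was at 4.26 TPM in m1, at most 0.3896 TPM in m2 and m3, and between 0.597 and 3.77 TPM in the combination tumors, so the vehicle tumors spanned the combination range. With a term for the Y-linked level, which was also high in m11 and m12, the lymphocyte median was -0.0044.

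**Figure D4:**
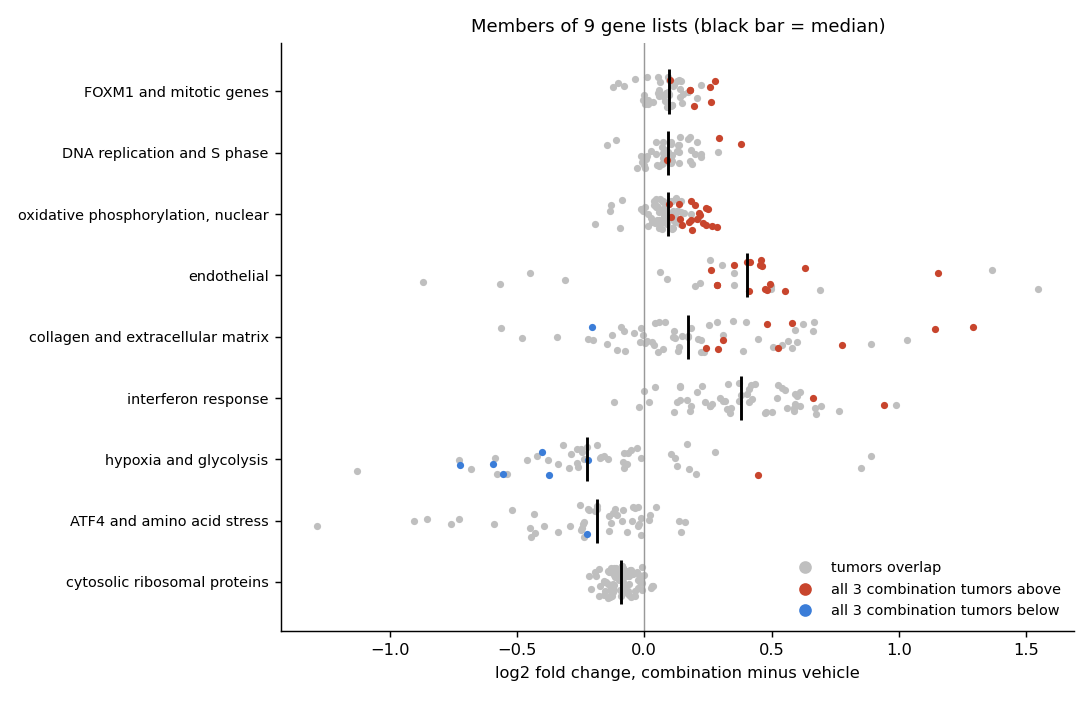
Log2 fold change (x axis, combination minus vehicle) of each tested member of 9 gene lists (rows), with black bars at list medians. Red points lie above the vehicle tumors in all 3 combination tumors and blue points below, and grey points overlap. The endothelial list has 16 red points of 33, the ribosomal protein list has 0 coloured points of 79.

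No gene of the respiratory chain or of the cytosolic ribosome was called by edgeR or DESeq2. Nuclear genes of oxidative phosphorylation, which build the respiratory chain, had a median of 0.094 with 70 of 77 above 0, against 50.4% of all genes, and 19 above the vehicle tumors without overlap (24.7%, against 7.1%). *Cox6a1*, a subunit of cytochrome c oxidase that is the form outside muscle, was at 106, 109.6 and 116 CPM against 136, 124 and 134 CPM (0.25 ± 0.083, edgeR adjusted p = 0.666). With the muscle fibre term the median of the list was 0.036. Ribosomal protein genes went the other way, with a median of -0.092 and 76 of 79 below 0. Their summed level was 84266, 85342 and 97265 CPM in the vehicle tumors and 81403, 81385 and 90139.9 CPM in the combination tumors, the groups overlapped, and the median was 0.0047 without m3.

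Some called genes encode single enzymes of lipid, glycan and glutathione metabolism. *Ebp*, the sterol isomerase of cholesterol synthesis, was at 34.2, 34.8 and 30.2 CPM in the vehicle tumors and 46.7, 47.2 and 43.2 CPM in the combination tumors (0.47 ± 0.093, DESeq2 adjusted p = 0.0117, 0.259 without m11), with no overlap. Of the 36 genes of that pathway it was the only one above the vehicle tumors without overlap (2.78%, against 7.1% of all genes). Below them were 3 (8.33%, against 5.53%), and the median was -0.081. *Scd1*, the stearoyl-CoA desaturase, was lower at 187, 250.4 and 173 CPM against 161, 157 and 119.8 CPM (-0.48 ± 0.16, DESeq2 adjusted p = 0.188) and not called. *Mgat3*, which adds the bisecting GlcNAc to N-glycans, was at 15.4, 14.3 and 16.5 CPM against 22.6, 22.2 and 21.97 CPM (0.53 ± 0.10, DESeq2 adjusted p = 0.00712, 0.133 without m11), and the combination tumors were almost equal. *Galnt13*, which starts O-glycans, was lower at 30.2, 32.2 and 33.9 CPM against 23.4, 23.5 and 23.5 CPM (-0.45 ± 0.11, DESeq2 adjusted p = 0.0742, 0.464 without m11). *Gstt1*, a glutathione transferase, was lower at 12.9, 17.2 and 17.3 CPM against 9.07, 7.86 and 10.7 CPM (-0.78 ± 0.20, DESeq2 adjusted p = 0.0617, 0.611 without m11), while the 44 glutathione and NRF2 genes had a median of 0.060.

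Further called genes stood outside the lists. *Rsbn1* was at 21.2, 22.8 and 22.1 CPM against 13.5, 13.4 and 13.1 CPM (-0.73 ± 0.16, DESeq2 adjusted p = 0.0125, 0.2 without m11), and its change stayed within -0.75 (without m1) to -0.71 (without m2). The zinc finger gene *Zfp280c* was at 37.7, 38.8 and 39.8 CPM against 29.1, 30.6 and 27.4 CPM (-0.42 ± 0.084, DESeq2 adjusted p = 0.00777, 0.214 without m12) and was called in 5 of the 6 fits that left out a tumor. *Rprd2*, which binds the tail of RNA polymerase II, was at 65.2, 75.4 and 74.6 CPM against 57, 57.03 and 56.9 CPM (-0.33 ± 0.076), and *Ankhd1*, an ankyrin repeat protein, at 95.6, 87.3 and 78.2 CPM against 72.7, 68.5 and 64.8 CPM (-0.34 ± 0.078), with DESeq2 adjusted p of 0.0562, 0.432 without m11 and 0.0492, 0.417 without m11. All 4 were lower without overlap. Among the higher genes, *Plac9a* was at 3.18, 2.86 and 3.39 CPM against 7.13, 5.92 and 6.501 CPM (1.05 ± 0.20, DESeq2 adjusted p = 0.00712, 0.0996 without m2) and edgeR called it without m9 (adjusted p = 0.0915).

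**Figure D5:**
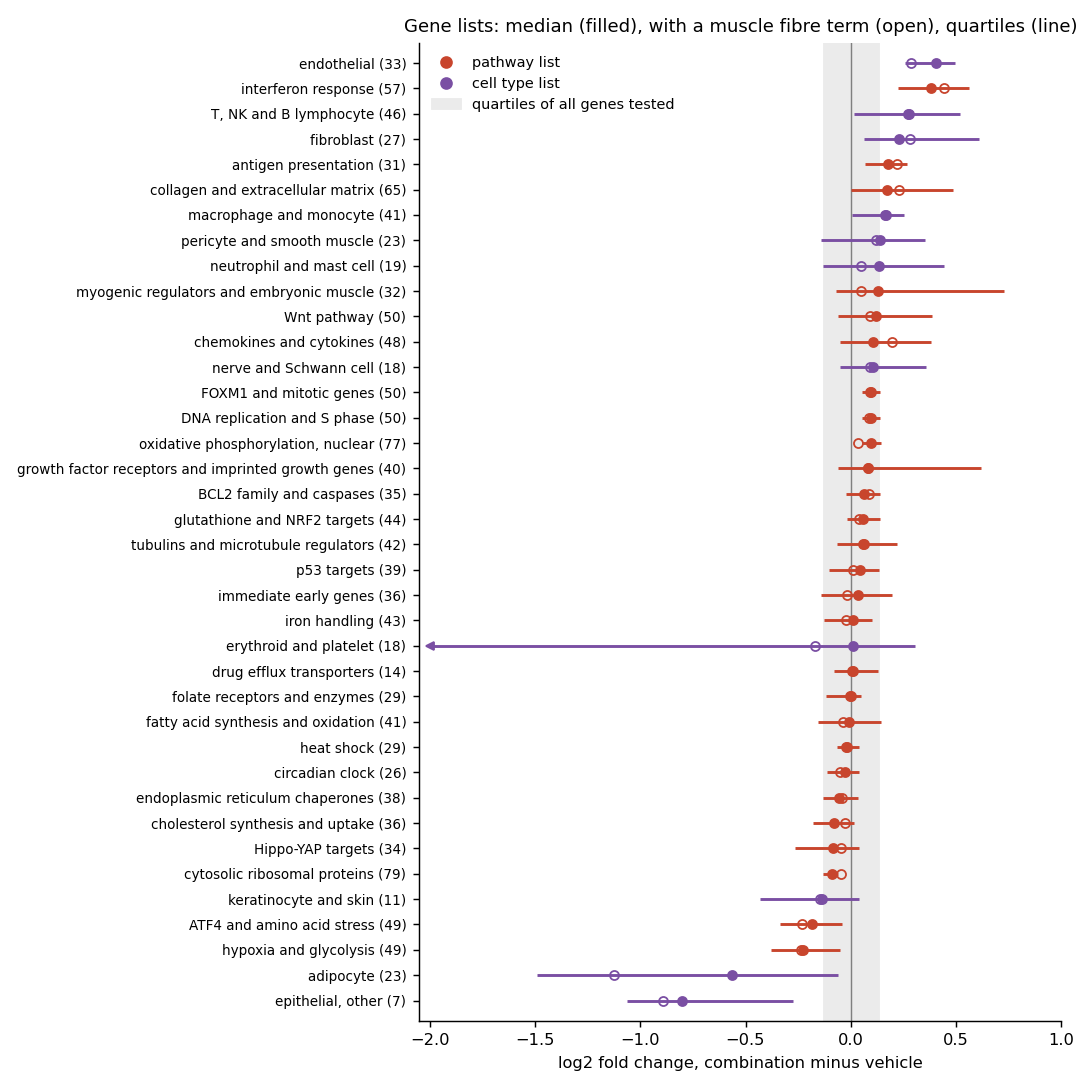
Median log2 fold change (x axis, combination minus vehicle) of 38 gene lists (rows, tested genes in brackets), filled in the fit without and open in the fit with a muscle fibre term, with lines for the quartiles of the members and grey for those of all genes. Endothelial (0.41) and interferon (0.38) lie highest, and hypoxia (-0.23) and ATF4 (-0.19) are the lowest of the pathway lists.

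Of the remaining lists, endoplasmic reticulum chaperones had a median of -0.058, heat shock genes -0.017, fatty acid genes -0.0090, immediate early genes 0.033, folate genes -0.0062, chemokines and cytokines 0.10 and neutrophil and mast cell genes 0.14. Adipocyte genes had a median of -0.56, with 0 separated, and -0.075 without vehicle tumor m2, whose summed level of 401 CPM was the highest of the 6. The β-globin gene *Hbb-bs* was at 100, 131 and 3.73 CPM in the vehicle tumors and 4.93, 1.91 and 7.05 CPM in the combination tumors (-4.08 ± 1.61, DESeq2 adjusted p = 0.282), so that m1 and m2 stood apart while m3 lay within the range of the combination. Keratinocyte, nerve and other epithelial lists had 11, 18 and 7 genes tested and medians of -0.14, 0.10 and -0.80, the last turning to 0.60 without m2. Erythroid and platelet genes had a median of 0.010, with 6 of 18 lower at an unadjusted edgeR p under 0.05, against 3.49% of all genes. The myogenic and embryonic muscle list had a median of 0.13 over 32 genes.

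The single-drug tumors share the vehicle tumors with the combination, so their values are set side by side. For direct tests of the combination against each single drug, edgeR called 0 genes of 17602 in either (0.0%), with 926 (5.26%) at an unadjusted p under 0.05 against VCR and 364 (2.07%) against RCM1, where DESeq2 called 11 and 0. Among the 38 genes 5 had an unadjusted p under 0.05 against each drug.

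*Dmbt1* and *Pde4b* were in both of these sets. *Dmbt1*, a scavenger receptor of epithelia and macrophage-rich tissue, had low levels of 1.203, 1.58 and 1.81 CPM in vehicle, 1.75, 1.12 and 1.43 CPM in VCR, 0.596, 0.9895 and 0.944 CPM in RCM1 and 0.274, 0.582 and 0.641 CPM in combination tumors. The combination was lower than vehicle and VCR in every tumor and overlapped RCM1 (-1.61 ± 0.34 against vehicle, DESeq2 adjusted p = 0.0415, 0.284 without m2). It differed from VCR by -1.52 and from RCM1 by -0.76 (edgeR adjusted p = 0.855 and 1.00). *Pde4b*, a phosphodiesterase that breaks down cAMP, was at 25.2, 47.1 and 35.9 CPM in vehicle, 40.5, 25.8 and 17.7 CPM in VCR, 17.5, 38.5 and 27.7 CPM in RCM1 and 16.9, 14.01 and 18.5 CPM in combination tumors. The combination overlapped VCR alone at m6 and RCM1 alone at m7. Its differences from the single drugs were -0.77 and -0.76, with adjusted p of 0.855 and 1.00.

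The other genes named here were each in 1 of these sets only. *Ciart* was at 9.61, 9.83 and 9.46 CPM after VCR and 17.4, 17.1 and 11.5 CPM after RCM1, and *Vegfa* at 247, 210.5 and 219.5 CPM and 319, 234 and 267 CPM, so in both the combination was near VCR alone and its difference from RCM1 was -0.72 and -0.31. *Egfr* was at 63.1, 58.1 and 71.4 CPM after VCR and 66.9, 73.9 and 76 CPM after RCM1, and *Kdm3a* at 64.2, 64.3 and 82.9 CPM and 106, 92.9 and 87.8 CPM. In both the mean of the combination lay between those of VCR alone and vehicle, above VCR by 0.19 and 0.35. The edgeR adjusted p of each of these 4 differences was at least 0.855. The endothelial median was 0.53 after VCR and 0.38 after RCM1, beside 0.41 after both, and the hypoxia median was -0.24 and -0.092, beside -0.23. The interferon median was below 0 after each single drug, at -0.31 and -0.39.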

How the data were processed

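RNA from 12 Rd76-9 tumors was sequenced (libraries called non-stranded, from a kit named stranded), and the authors quantified reads with kallisto against RefSeq mouse transcripts, GRCm38 (version not given in the sources used here). The deposited tables hold estimated counts and TPM per transcript. Estimated counts of 120299 transcripts were summed to 38898 genes and rounded, and 17602 passed filterByExpr (minimum count 10). The 6 tumors compared held 29342195 to 32049539 estimated counts. The labels do not say whether each tumor came from its own mouse, so p-values measure the spread between these samples, which may be technical. TPM, deposited by the authors, was used for marker levels only.

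One edgeR 4.0.16 quasi-likelihood fit (TMM, 4 groups, 12 tumors, two-sided, Benjamini-Hochberg, threshold 0.1) was the main test. DESeq2 1.42.0 (Wald) and limma 3.58.1 (voom), in R 4.3.3, were alternatives. CPM were TMM scaled for single genes and scaled to library size alone for list sums. Scripts were tested on simulated data. Members and lists were chosen with earlier results of these data known. Genes were named if they had the 12 smallest edgeR p in each direction among non-overlapping genes with a mean of at least 1 CPM, if DESeq2 called them, if they were among the 3 smallest p of a list, or if they belong to the drugs or the staining. Muscle genes and *Chac1* were left out, and of these genes the text names only some; 1 gene fixed by the rule is not reported here. Lists got counts and medians but no test. Alternatives were the other tests, size factors, filters, the 6 tumors alone, terms for muscle fibre or Y-linked level, dropping each tumor in turn, and 0.05 as the threshold. Promoters are RefSeq (GRCm38.p6). Python 3.11.15, numpy 2.4.6, pandas 2.3.3 and matplotlib 3.10.9 were used.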

Additional observations from a re-analysis of the deposited data

How the results depend on the processing

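For the combination against vehicle, edgeR called 0 genes in the main test, 6 with the muscle fibre term (*Actn2*, *Cox6a2*, *Des*, *Eef1a2*, *Klhl41* and *Xirp2*, all higher) and 44 without m9 (42 higher, 2 lower), and 0 under the other alternatives that kept edgeR or used limma-voom. DESeq2 called 61. For the combination against VCR, DESeq2 called 11 (10 higher, 1 lower). The DESeq2 count of 61 was 238 with only the 6 tumors, 93 with the muscle fibre term (76 higher), 117 with the Y-linked term (90 higher) and 27 at a threshold of 0.05. Leaving out a tumor gave 7 (m11) to 428 (m1), among them 11 (m12), 17 (m2), 114 (m7), 117 (m8), 156 (m3, with 41 higher and 115 lower) and 264 (m9). The cause was not tested. The sign of *Mki67*, at a log2 fold change of 0.0030, turned with DESeq2 (-0.0060), its size factors in edgeR (-0.0060), no filter (-0.0048), a mean count of at least 50 (-0.014), 6 tumors (-0.0024) and the muscle fibre term (-0.023), and, on leaving out a tumor, it ran from -0.13 (m3) to 0.11 (m2). Of the other values of genes named, 1452 kept their direction and side of the threshold and 34 passed it. Among 640 list medians, 17 moved beyond the spread of the tumors, and 17 of the 40 lists changed the sign of their median without 1 of the 6 tumors. No paired analysis was possible because the labels number the tumors 1 to 12 without repeats, which gives no number that 2 groups share.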
